A study of Homo sapiens with 6 samples.

Results

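This report describes the mRNAs of the translation initiation, elongation and termination factors that act around EIF1 in ARPE-19 cells, a human retinal pigment epithelial cell line. The members are the protein-coding genes of the deposited count table whose symbols begin with EIF2 to EIF6, EEF1A, EEF1B, EEF1D, EEF1G or EEF2, together with ETF1, GSPT1, GSPT2, PABPC1, PABPC4 and PDCD4. EIF2D, EIF5 and EIF5B were left out of that rule. It took 67 of the 30618 genes in the table, by name alone and with no measured value. All cells of the study's 6 sequenced libraries were cultured in 50 mM glucose as a model of the diabetic retina, 3 libraries (NC) after transfection of a negative control siRNA and 3 (siEIF1) after transfection of an siRNA against EIF1. The libraries of a group are labelled as biological replicates. The comparison asks what the loss of EIF1 does to the transcriptome of cells in high glucose. There was no library at normal glucose, all 6 came from 1 cell line, and an effect of EIF1 loss cannot be told apart from an off-target effect of the siRNA.

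Translation begins when EIF2, loaded with GTP and the initiator tRNA, joins the small ribosomal subunit together with EIF3, EIF1 and their partners. The mRNA is brought by the EIF4 factors, of which EIF4E binds the cap, EIF4A unwinds and EIF4G is the scaffold. EIF2B reloads EIF2 with GTP, the EIF2AK kinases stop this step by phosphorylating EIF2, EEF1 and EEF2 carry the elongation cycle, and ETF1 with GSPT1 or GSPT2 ends it. EIF1 itself sits on the small subunit and guards the choice of the start codon.

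EIF3C and EIF3CL, whose mRNAs rose furthest of all members, are near-identical copies, and a stretch of each is printed because it holds the sole difference between their canonical transcripts (GENCODE 44 on GRCh38, the build named in the submitters' processing notes). EIF3C lies at chr16:28688558-28735727 on the plus strand and EIF3CL at chr16:28379579-28403841 on the minus strand. The transcripts are 2910 and 2913 bases long and differ by 3 bases, an added GAG in coding exon 9 of 21 of EIF3CL. The stretches lie at chr16:28723245-28723270 for EIF3C and chr16:28392033-28392061 for EIF3CL, and the capitals mark the added GAG, whose place within the run of GAG repeats is arbitrary.
EIF3C: caagcgcctggatgaggaggaggagg
EIF3CL: caagcgcctggatGAGgaggaggaggagg
Of the windows of 150 bases in these transcripts, 95.1% of those of EIF3C and 95.0% of those of EIF3CL also occur in another gene's transcripts. Only reads with a single place in the genome were counted by the study's methods, so both rows rest on a small part of each gene.

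The libraries held 26499929 to 31431479 counted reads, of which 3.85% to 3.94% fell on the members and 9.23% to 9.98% on mitochondrial genes. EIF1 itself, the target of the siRNA, had FPKM of 294, 281 and 281 in the NC libraries and 24.3, 22.7 and 23.5 in the siEIF1 libraries, so the labels and the data go together in every library. FPKM is the deposited count scaled to gene length and library size. Of 10 markers of the retinal pigment epithelium 9 were in the table and 6 passed an FPKM of 1, while their summed FPKM was 523 to 541 in NC and 565 to 611 in siEIF1. Most of that sum was from the keratins KRT18 and KRT8, which rose by 0.25 and 0.24 on the log2 scale (edgeR adjusted p = 0.00442 and 0.0095), while BEST1 had 66.0 ± 5.15 FPKM in NC and 52.0 ± 11.9 in siEIF1 (SD, n = 3; edgeR adjusted p = 0.106). RLBP1 rose from 0.24 to 0.68 FPKM (edgeR adjusted p = 0.00102). RPE65 was not analysed here, and TYR, PMEL and RLBP1 were under that level. Markers of fibroblasts, endothelium and photoreceptors summed to at most 0.04 FPKM, and those of leukocytes to 0.83 to 0.98. A list of 8 genes of dividing cells summed to 93.9 to 97.0 FPKM in NC and 66.2 to 69.2 in siEIF1, and all 8 fell, with a median log2 fold change of -1.22. Its part in the results on translation factors was not tested. In bulk RNA, fewer cells of a type and less RNA per cell cannot be told apart.

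Of the 67 members, 65 had enough counts to be tested. The mRNAs of 13 were higher and of 8 lower in siEIF1 than in NC in the quasi-likelihood test of edgeR, at an adjusted p under 0.05 (Benjamini-Hochberg over the 16749 genes tested). These are 20% and 12.3% of the members, against 10.2% of all tested genes called higher and 10.4% called lower. The shares of all tested genes, here and below, are not matched for depth. Of the 44 uncalled members 42 had a mean of at least 100 counts, against 8910 of the 13303 uncalled genes. Whether depth accounts for the difference in shares was not tested. None of the members moved as far as a 2-fold change, which together with the adjusted p was passed by 1.71% of all genes. The median log2 fold change of the members was 0.0025 and that of all genes 0.0033, and the members ran from -0.60 for EIF4EBP1 to 0.68 for EIF3C. Overlap of the groups was counted in CPM, the count scaled to library size. There, 20 members were higher in every siEIF1 library than in any NC library (30.8%, against 18.2% of all genes). Another 16 were lower in this way (24.6%, against 18.9%). Overlap can differ in FPKM, as it does for EIF2S3. For the 42 uncalled members with a mean of at least 100 counts, the 95% intervals of the log2 fold change lay between -0.48 and 0.27. DESeq2 also called 21 members, 20 of them the same. With NC replicate 1, NC replicate 3 or siEIF1 replicate 2 left out, 6 members were called higher, and 5, 5 and 4 lower. The shares of all tested genes called in these fits are not given here. Called in either direction were 25% of EIF2, 50% of EIF2AK, 20% of EIF2B, 35.7% of EIF3 and 43.8% of EIF4. The share was 25% for EIF5A with EIF6, 23.1% for EEF and 20% for termination and poly(A) binding, against 20.6% of all tested genes. These sets hold 4 to 16 tested genes each. The 2 untested members were EIF2S3B, with a mean of 2.5 counts, and the readthrough EEF1AKMT4-ECE2, with 4.33.

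**Figure D1:**
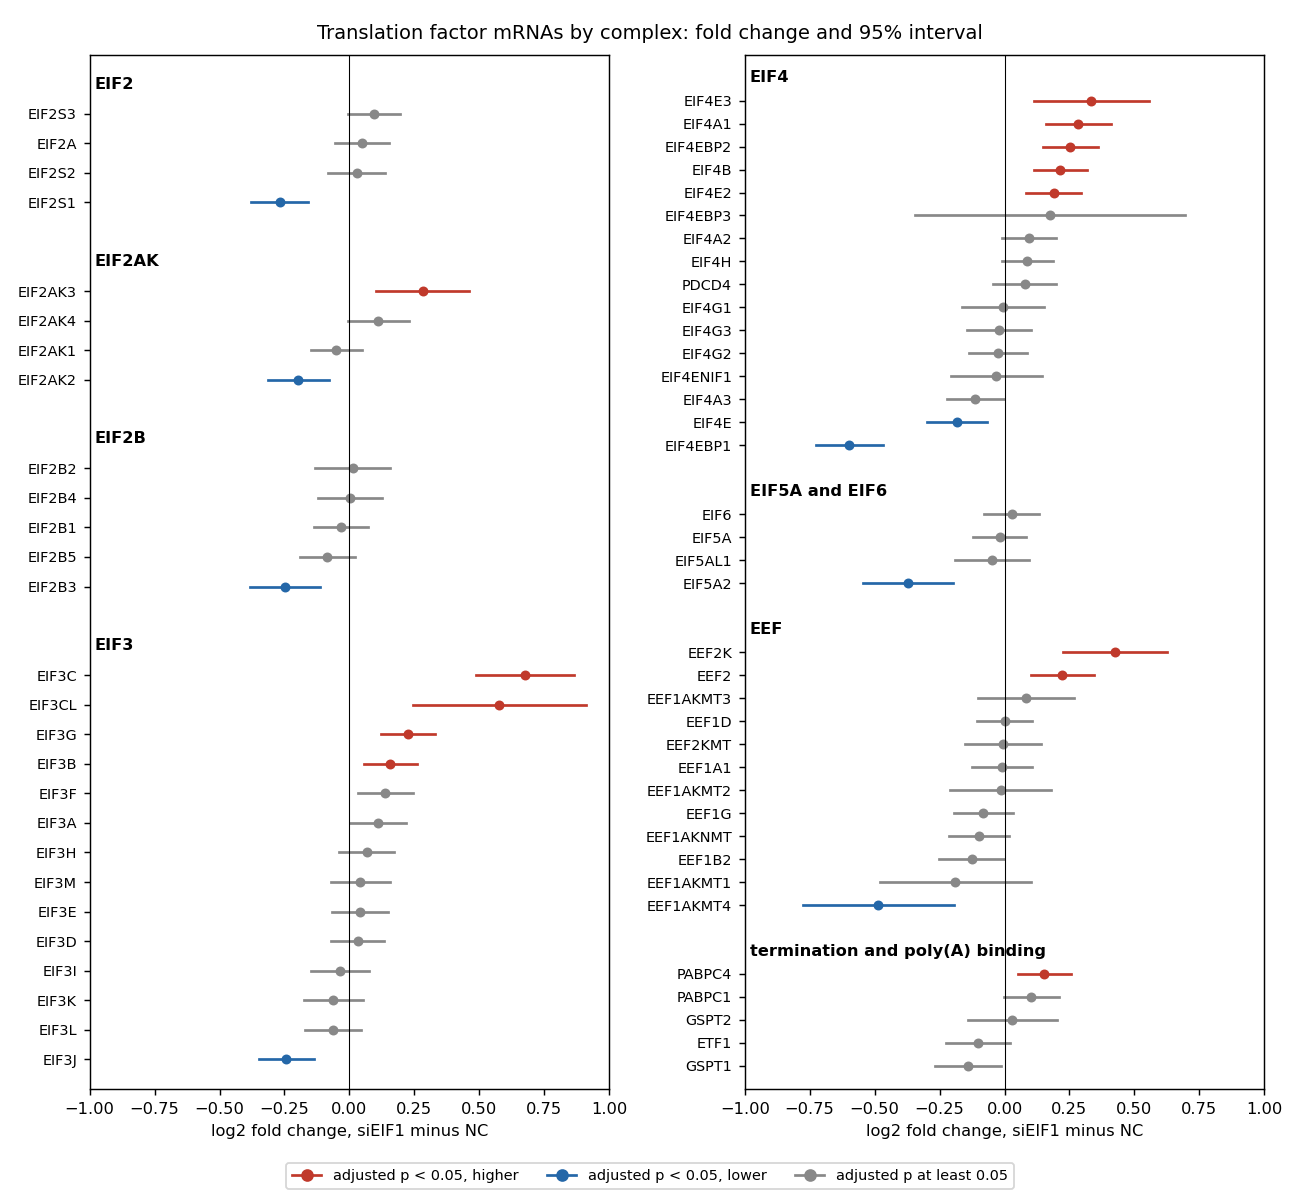
Log2 fold change (horizontal axis, siEIF1 minus NC) of the tested members by complex, with points for edgeR estimates and bars for 95% intervals. EIF3C and EIF3CL stand farthest to the right and EIF4EBP1 farthest to the left. EEF1A2, whose interval ran from -1.51 to 1.28, is left out of the plot.

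**Figure D2:**
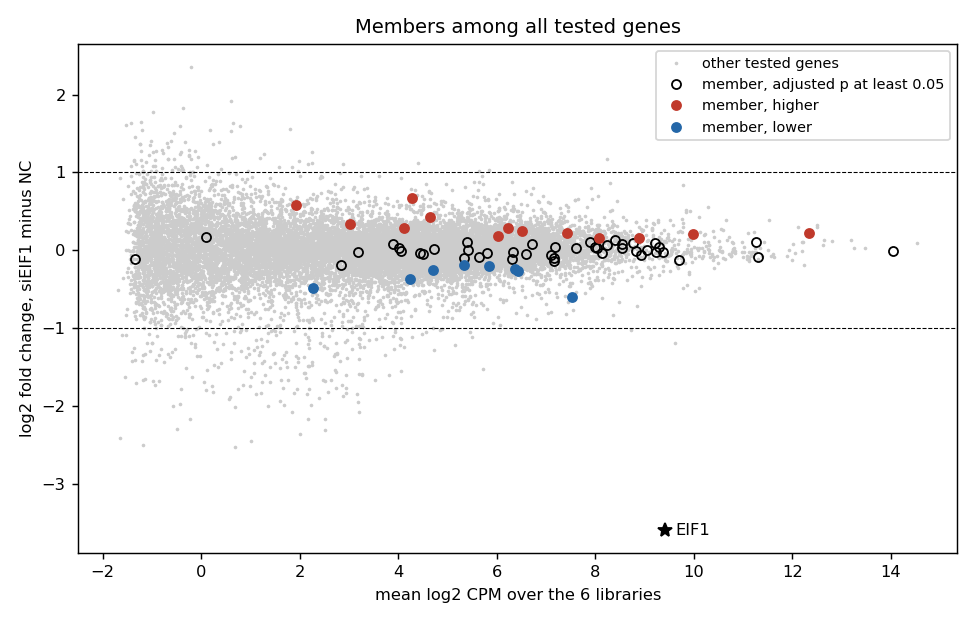
Log2 fold change (vertical axis, siEIF1 minus NC) against mean log2 CPM (counts scaled to library size) over the 6 libraries, for every tested gene in grey and the members in larger circles. The dashed lines stand at 2-fold changes, and the members lie between them while EIF1 (star, -3.58) lies far below.

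Levels of different genes were compared as CPM per kb, where CPM is the count scaled to library size and kb is the length of the GENCODE canonical transcript in kilobases. This was needed because the length implied by a gene's counts and its deposited FPKM was 1.23 to 22.9 times that of the canonical transcript among the 64 members with an FPKM over 0.5, with a median of 1.98. The highest ratio was that of EIF3E, whose FPKM of 13.4 in NC was the lowest of the EIF3 subunits after EIF3C and EIF3CL, while its 306 CPM per kb was the highest. Each ratio is a mean over the 6 libraries. The edgeR fold changes between the groups were fitted on counts and do not use this length.

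In the EIF2 complex the mRNA of the alpha subunit, EIF2S1, fell, and those of its partners did not pass the test. EIF2S1, which carries the serine that the EIF2AK kinases phosphorylate, had FPKM of 14.7, 14.6 and 14.1 in NC and 12.3, 11.6 and 11.6 in siEIF1. Every siEIF1 library was below every NC library, and the log2 fold change was -0.27 (SE 0.051, edgeR adjusted p = 0.00221). The call held without any of the 6 libraries. EIF2S3, the gamma subunit that binds GTP and the initiator tRNA, had the highest log2 fold change of the complex at 0.10 (SE 0.047, edgeR adjusted p = 0.175). Its FPKM was 83.7, 86.8 and 84.4 in NC and 91.1, 86.5 and 91.2 in siEIF1. The beta subunit EIF2S2 and the separate initiator tRNA carrier EIF2A had log2 fold changes of 0.03 and 0.05. By level, EIF2S1 was the scarce subunit in NC, at 22.6 ± 0.79 CPM per kb beside 101 ± 5.79 for EIF2S2 and 122 ± 3.29 for EIF2S3 (SD, n = 3).

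The 4 kinases of EIF2 divided, with 1 called higher, 1 called lower and 2 not called. EIF2AK3, known as PERK, the kinase of the endoplasmic reticulum stress response, had FPKM of 0.55, 0.67 and 0.64 in NC and 0.79, 0.71 and 0.74 in siEIF1. The groups did not overlap, and the log2 fold change was 0.28 (SE 0.083, edgeR adjusted p = 0.0275). EIF2AK2, known as PKR, the kinase that senses double-stranded RNA, went the other way. Its FPKM was 4.62, 4.42 and 4.65 in NC against 4.01, 3.59 and 4.19 in siEIF1, again with no overlap, a log2 fold change of -0.20 (SE 0.055, edgeR adjusted p = 0.0217). EIF2AK1, which responds to heme shortage, and EIF2AK4, which responds to uncharged tRNA, had log2 fold changes of -0.05 and 0.11, with 95% intervals of -0.15 to 0.05 and -0.0051 to 0.23. With a library left out, the log2 fold change of EIF2AK3 lay between 0.21 and 0.35 and that of EIF2AK2 between -0.23 and -0.15, but both calls could be lost. EIF2AK3 lost its call without NC replicate 1 or 3 or siEIF1 replicate 1 or 2 and EIF2AK2 without NC replicate 1 or 3 or siEIF1 replicate 2, with adjusted p up to 0.11 and 0.106.

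EIF2B, the exchange factor that returns GTP to EIF2, has 5 subunits, and of these the mRNA of the gamma subunit EIF2B3 alone was called. EIF2B3 had FPKM of 6.97, 6.46 and 7.01 in NC and 5.72, 5.30 and 5.96 in siEIF1. All siEIF1 values were below all NC values (log2 fold change -0.25, SE 0.063, edgeR adjusted p = 0.0131). The call was lost without NC replicate 3 or siEIF1 replicate 2, where the adjusted p reached at most 0.0644. At the other end stood the beta subunit EIF2B2, with FPKM of 4.12, 3.89 and 3.88 in NC and 4.18, 3.87 and 3.77 in siEIF1. Its log2 fold change was 0.01 (SE 0.067, 95% interval -0.13 to 0.16, edgeR adjusted p = 0.928). The catalytic epsilon subunit EIF2B5 had a log2 fold change of -0.08 (95% interval -0.19 to 0.02), and the alpha and delta subunits EIF2B1 and EIF2B4 had -0.03 and 0.0025. The median of the 5 subunits was -0.03.

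EIF3 is the largest initiation factor and the platform on which the others meet the small ribosomal subunit. Of its 14 genes 4 rose (EIF3C, EIF3CL, EIF3G and EIF3B) and 1 fell (EIF3J), and their median log2 fold change was 0.05. These are 28.6% and 7.14%, against 10.2% and 10.4% of all tested genes, with the near-identical EIF3C and EIF3CL counted apart. EIF3C, a core subunit that touches EIF1 on the ribosome, had FPKM of 1.69, 1.89 and 1.69 in NC and 2.73, 2.45 and 3.15 in siEIF1. The lowest siEIF1 library was well above the highest NC library, at a log2 fold change of 0.68 (SE 0.088, edgeR adjusted p = 1.38e-04). EIF3CL had 0.68, 0.78 and 0.93 in NC and 1.25, 1.19 and 1.07 in siEIF1, which gave 0.58 (SE 0.154, edgeR adjusted p = 0.0172). These groups also did not overlap, but the EIF3CL call was lost without NC replicate 1 or 2 or siEIF1 replicate 2 (adjusted p up to 0.0787). With the counts of both copies summed, an analysis added after the data were seen, the log2 fold change was 0.66 (edgeR adjusted p = 5.29e-05). The log2 ratio of EIF3CL to EIF3C, taken on FPKM + 0.1, differed by -0.12 between siEIF1 and NC, with overlapping groups. The 2 rows have to be read with the sequences above. At 5.11 ± 0.39 and 1.01 ± 0.16 CPM per kb in NC (SD, n = 3), they lay far below the remaining EIF3 genes, which ran from 34.3 for EIF3A to 306 for EIF3E.

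Outside this locus, the changes in EIF3 were small. EIF3G, an RNA-binding subunit that stays mobile on the ribosome and helps scanning, had FPKM of 36.4, 38.2 and 37.6 in NC and 43.4, 43.8 and 42.1 in siEIF1. With no overlap and every siEIF1 library above 42, it gave a log2 fold change of 0.23 (SE 0.049, edgeR adjusted p = 0.00513). EIF3B, the scaffold that holds EIF3G and EIF3I, had 23.1, 22.6 and 23.4 in NC and 24.4, 24.7 and 26.9 in siEIF1. Its groups were also apart, but the log2 fold change was 0.16 (SE 0.047, edgeR adjusted p = 0.0311) and the call was lost without any NC library and without siEIF1 replicate 2 or 3, with adjusted p up to 0.116. EIF3I, the third partner of this module, had a log2 fold change of -0.04 (95% interval -0.15 to 0.08). EIF3J, a loosely bound subunit near the decoding site, fell from 24.1, 23.1 and 23.8 FPKM in NC to 20.6, 18.5 and 20.2 in siEIF1. The groups did not overlap (log2 fold change -0.24, SE 0.049, edgeR adjusted p = 0.00331). The calls of EIF3C, EIF3G and EIF3J held without any of the 6 libraries.

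The octamer of subunits that forms the body of EIF3 had 1 call in 8, EIF3C (12.5%, against 20.6% of all tested genes). EIF3F, another of its subunits, was close to the threshold. It had FPKM of 17.3 ± 0.43 in NC and 18.8 ± 0.42 in siEIF1 (SD, n = 3), a log2 fold change of 0.14 and an edgeR adjusted p of 0.0616, which was 0.0274 in the fit with the replicate number as a block and 0.0449 by DESeq2. The same p was 0.0207 without siEIF1 replicate 3. For the 9 uncalled EIF3 genes the 95% intervals lay between -0.17 and 0.24.

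The EIF4 group, which recruits the mRNA, is the largest by number of genes and had 5 of 16 called higher and 2 lower (43.8% called, against 20.6% of all tested genes), with a median log2 fold change of 0.08. Its largest change was that of EIF4EBP1, a repressor that binds EIF4E and lets it go when mTORC1 phosphorylates it. EIF4EBP1 had FPKM of 229, 194 and 203 in NC and 139, 129 and 140.0 in siEIF1. All siEIF1 libraries were under the NC libraries by a wide margin, for a log2 fold change of -0.60 (SE 0.060, edgeR adjusted p = 1.6e-05). The related EIF4EBP2 moved the other way, from 9.11, 8.83 and 9.29 in NC to 10.4, 10.2 and 11.4 in siEIF1. It gave 0.25 (SE 0.049, edgeR adjusted p = 0.00246) with no overlap, and both calls held without any of the 6 libraries. By level, EIF4EBP1 was the major form in either group, at 271 ± 23.7 CPM per kb in NC and 179 ± 4.24 in siEIF1, beside 11.1 ± 0.17 and 13.2 ± 0.55 for EIF4EBP2 (SD, n = 3). EIF4EBP3, at 1.35 ± 0.09 CPM per kb in NC, had an interval of -0.35 to 0.69, and 66.4% of its windows also occur in other transcripts. EIF4ENIF1, the carrier of EIF4E into the nucleus, had -0.03 (95% interval -0.21 to 0.14).

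All 3 genes of the cap-binding EIF4E family were called (100%, against 20.6% of all tested genes), and not in 1 direction. A set of 3 genes is too small to weigh against that share. EIF4E, the cap-binding subunit of the initiation complex, had FPKM of 7.27, 6.94 and 6.94 in NC and 6.24, 5.94 and 6.21 in siEIF1. The groups were apart, with a log2 fold change of -0.18 (SE 0.054, edgeR adjusted p = 0.0285). EIF4E2, a cap-binding homologue known for repressing translation, had 7.46, 7.58 and 7.79 in NC and 8.68, 8.59 and 8.37 in siEIF1, a log2 fold change of 0.19 (SE 0.050, edgeR adjusted p = 0.0166). The little expressed homologue EIF4E3 had 0.48, 0.58 and 0.55 in NC and 0.69, 0.64 and 0.68 in siEIF1. It rose by 0.33 on the log2 scale (SE 0.103, edgeR adjusted p = 0.0345, 0.0655 by DESeq2). None of the 3 overlapped between groups. In CPM, 18.2% of all tested genes were likewise higher in every siEIF1 library and 18.9% lower. With a library left out, the log2 fold changes kept to -0.20 to -0.16 for EIF4E, 0.17 to 0.22 for EIF4E2 and 0.26 to 0.40 for EIF4E3, while the calls were often lost. EIF4E lost its call without any NC library or without siEIF1 replicate 2 or 3 (adjusted p up to 0.0941), EIF4E2 without any NC library or siEIF1 replicate 2 (up to 0.0755), and EIF4E3 without NC replicate 1 or 3 or any siEIF1 library (up to 0.128).

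**Figure D3:**
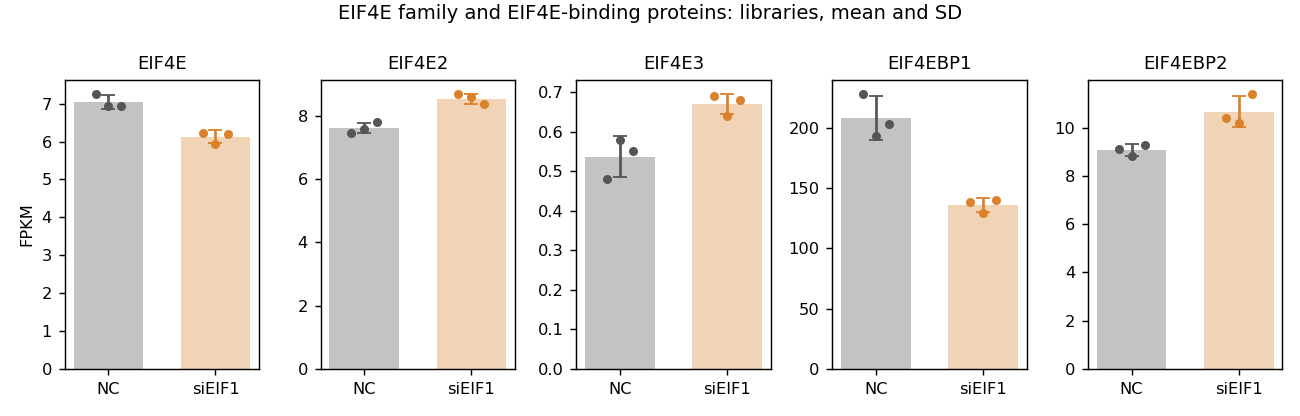
FPKM of the EIF4E family and of EIF4EBP1 and EIF4EBP2 in NC and siEIF1, with points for libraries, bars for means and whiskers for SD (n = 3), each panel on its own axis from 0. EIF4E and EIF4EBP1 were lower and EIF4E2, EIF4E3 and EIF4EBP2 higher in every siEIF1 library.

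Among the helicases, EIF4A1, the helicase of the cap-binding complex, rose, while its paralogues did not pass the test. EIF4A1 had FPKM of 10.8, 10.4 and 10.7 in NC and 13.2, 13.1 and 11.9 in siEIF1. No library crossed into the other group, and the log2 fold change was 0.28 (SE 0.058, edgeR adjusted p = 0.00378), a call that held without any of the 6 libraries. EIF4A1 lies at chr17:7572824-7579006 on the plus strand, overlapping the readthrough gene SENP3-EIF4A1, and 100% of its windows of 150 bases also occur in transcripts of other genes. The readthrough row held 21807 to 21999 counts in NC and 28154 to 30697 in siEIF1, beside 1816 to 1897 and 2231 to 2636 in the EIF4A1 row. SENP3-EIF4A1 changed by 0.29 (SE 0.050, edgeR adjusted p = 0.00103), and SENP3, the upstream neighbour, had -0.10 (SE 0.051, edgeR adjusted p = 0.184). The rows of EIF4A1 and the readthrough summed, added after the data were seen, gave 0.29 (edgeR adjusted p = 0.0011). This sum leaves out RP11-186B7.4, a further row, which shares 1292 windows with EIF4A1, beside 1318 for the readthrough. RP11-186B7.4 was not called, with a log2 fold change of 0.08 (edgeR adjusted p = 0.3). The level of EIF4A1 in its own row, 38.3 CPM per kb in NC, is therefore no measure of the locus.

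**Figure D4:**
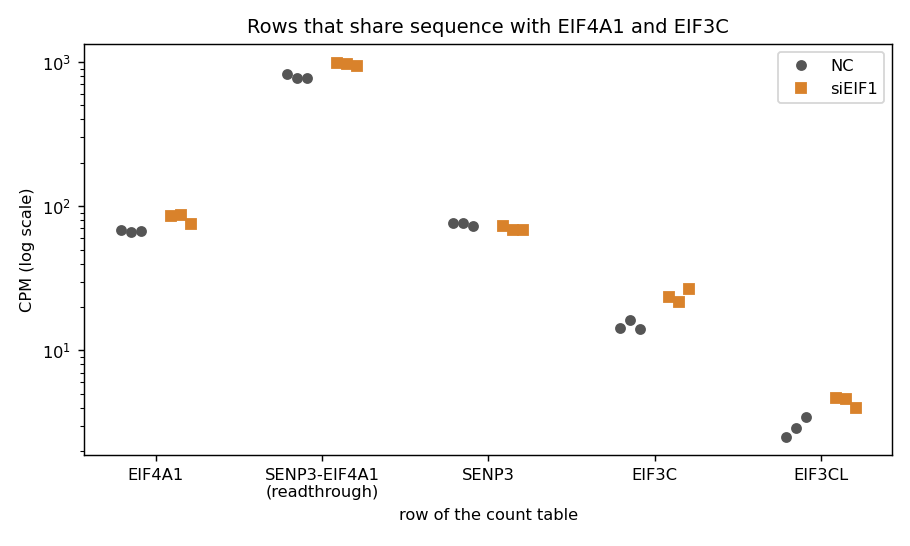
CPM on a log scale for EIF4A1, SENP3-EIF4A1, SENP3, EIF3C and EIF3CL, with 1 point for each NC and siEIF1 library. SENP3 is the upstream neighbour of EIF4A1. The further row described above, which shares windows with EIF4A1 and was not called, is not plotted. The readthrough row lies above the EIF4A1 row by more than a factor of 10, and EIF4A1, SENP3-EIF4A1, EIF3C and EIF3CL were higher in every siEIF1 library while SENP3 overlapped.

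EIF4A2, the paralogue with the same role, had a log2 fold change of 0.09 (95% interval -0.011 to 0.20), and EIF4A3, a core part of the exon junction complex, -0.11 (-0.22 to -0.0039). EIF4B, which stimulates the helicase, rose from 126, 129 and 126 FPKM in NC to 146, 142 and 148 in siEIF1. With groups far apart relative to their spread, it gave 0.21 (SE 0.048, edgeR adjusted p = 0.0062), and the call was lost only without NC replicate 3, at 0.0515. EIF4H, which shares this role, had 0.09 (95% interval -0.0091 to 0.19), and PDCD4, an inhibitor of the helicase, 0.08 (-0.04 to 0.20). The scaffolds EIF4G1, EIF4G2 and EIF4G3 had log2 fold changes of -0.006, -0.03 and -0.02, with overlapping groups and intervals between -0.16 and 0.15. EIF4G1 was the least even of them in siEIF1, at 37.0, 40.3 and 48.1 FPKM against 41.6, 41.2 and 44.9 in NC.

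EIF5A, which helps the ribosome through difficult stretches and carries the modified residue hypusine, was among the abundant members at 481 ± 8.89 CPM per kb in NC and 475 ± 11.3 in siEIF1 (SD, n = 3), and its log2 fold change was -0.02 (95% interval -0.12 to 0.08). The less abundant isoform gene EIF5A2 fell. Its FPKM was 3.12, 3.08 and 3.26 in NC and 2.54, 2.06 and 2.61 in siEIF1. The groups did not overlap (log2 fold change -0.37, SE 0.080, edgeR adjusted p = 0.00513), and the call held without any of the 6 libraries. EIF5AL1, a further gene of EIF5A type, had an interval of -0.19 to 0.09. EIF6, which keeps the ribosomal subunits apart, had FPKM of 96.6, 97.8 and 94.7 in NC and 98.8, 97.7 and 93.8 in siEIF1, with an interval of -0.08 to 0.13 (edgeR adjusted p = 0.753).

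The 4 most abundant members were elongation factors, led by EEF1A1 at 4807 ± 63.1 CPM per kb in NC and 4776 ± 155 in siEIF1 (SD, n = 3), followed in NC by EEF1G, EEF2 and EEF1B2 at 1809, 1517 and 1079. Of the 6 subunit genes EEF2 alone was called (16.7%, against 20.6% of all tested genes). EEF2, the factor that moves the ribosome along by a codon, had FPKM of 918, 1026 and 985 in NC and 1106, 1125 and 1140 in siEIF1, and no library crossed into the other group. The log2 fold change was 0.22 (SE 0.057, edgeR adjusted p = 0.0133), and the call was lost without NC replicate 1 or 3 or siEIF1 replicate 2, with adjusted p up to 0.0717. EEF1A1, which delivers the aminoacyl-tRNA, had -0.01 (95% interval -0.12 to 0.10), and EEF1D, a subunit of its exchange factor, had an interval of -0.11 to 0.11. EEF1B2 and EEF1G, further subunits of the exchange factor, were lower in every siEIF1 library but not called, at -0.13 (-0.25 to -0.0022) and -0.08 (-0.20 to 0.03). The sequence of EEF1G is not its own in 94.9% of its windows. EEF1A2, the form of muscle and neurons, was at 0.19 CPM per kb in NC and could not be resolved.

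The enzymes that modify elongation factors gave the widest changes of this group. EEF2K (chr16:22206278-22288738, plus strand), the kinase that phosphorylates EEF2 and so stops it, had FPKM of 2.01, 2.18 and 2.30 in NC and 2.53, 2.68 and 3.40 in siEIF1. All siEIF1 libraries were above NC, replicate 3 most of all, and the log2 fold change was 0.43 (SE 0.093, edgeR adjusted p = 0.0058). It stayed between 0.30 and 0.51, and called, without any of the 6 libraries. EEF1AKMT4, a lysine methyltransferase of EEF1A, was lower, at 5.02, 5.03 and 4.04 in NC and 3.15, 3.29 and 3.49 in siEIF1. The groups did not overlap, with -0.49 (SE 0.135, edgeR adjusted p = 0.0211), but the call was lost without NC replicate 1 or 2 or siEIF1 replicate 1 or 2 (adjusted p up to 0.0854), and 40.4% of its windows also occur in other transcripts. The other methyltransferase genes EEF1AKMT1, EEF1AKMT2, EEF1AKMT3, EEF1AKNMT and EEF2KMT were not called, within intervals of -0.48 to 0.27.

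For termination and poly(A) binding, 1 of 5 genes was called. PABPC4, a cytoplasmic poly(A)-binding protein, had FPKM of 35.03, 36.5 and 36.4 in NC and 40.8, 37.9 and 39.7 in siEIF1. The groups were separate but close (log2 fold change 0.15, SE 0.048, edgeR adjusted p = 0.0368), and the call was lost without any NC library or siEIF1 replicate 1 or 2, with adjusted p up to 0.13. The major form PABPC1, at 827 ± 17.9 CPM per kb beside 143 ± 3.37 for PABPC4 in NC (SD, n = 3), had 0.10 (95% interval -0.0021 to 0.21). GSPT1, the GTPase partner of the release factor ETF1, had the lowest value at -0.14 (SE 0.059, 95% interval -0.27 to -0.01), with an edgeR adjusted p of 0.117 that became 0.0238 with the replicate number as a block. Its FPKM was 16.6, 14.5 and 14.9 in NC and 14.5, 12.99 and 13.7 in siEIF1, so that the groups overlapped by a single library. ETF1 and GSPT2 had -0.10 (-0.22 to 0.02) and 0.03 (-0.14 to 0.20).

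**Figure D5:**
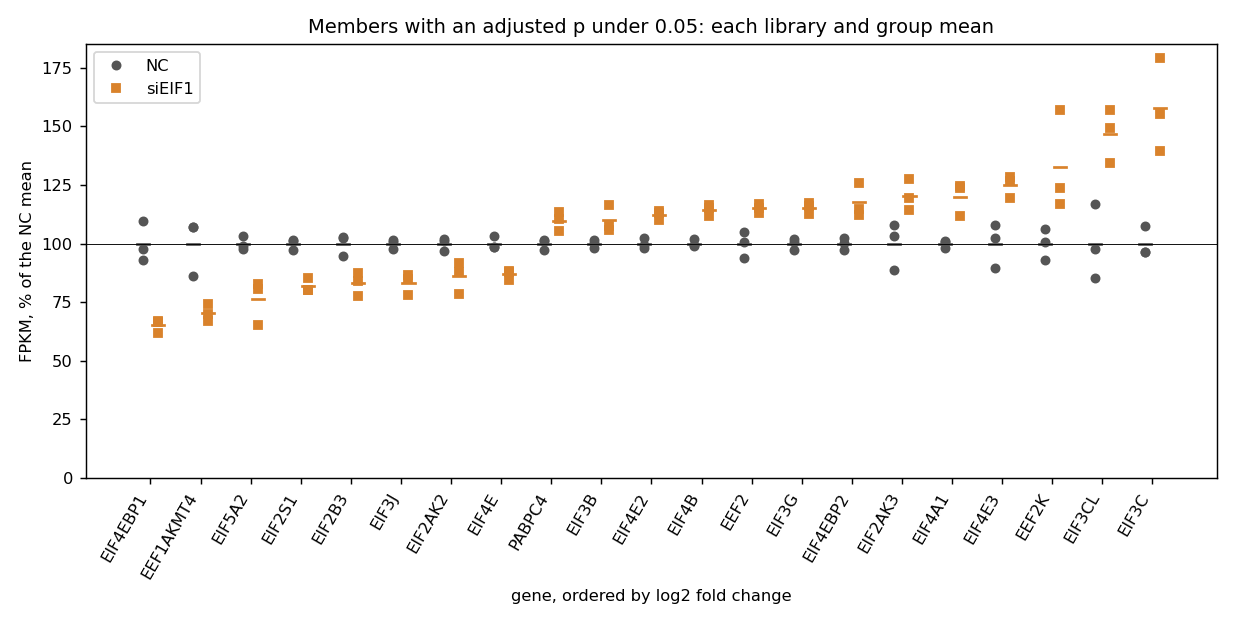
FPKM of the 21 called members as a percentage of the NC mean, with 1 point for each NC and siEIF1 library and short lines for group means, ordered by fold change. For each gene the siEIF1 points lie on 1 side of all NC points, and EEF2K, EIF3C and EIF3CL show the widest scatter in siEIF1.

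Balances between related factors were compared as log2 ratios of their FPKM + 0.1 in each library, for 11 pairs. Since FPKM carry the lengths described above, the ratios are no measure of the relative levels of the genes, and only their difference between the groups is compared. The ratio of EIF4EBP1 to EIF4E went from 4.86 ± 0.09 in NC to 4.45 ± 0.03 in siEIF1, and that of EIF4E2 to EIF4E from 0.11 ± 0.07 to 0.47 ± 0.05 (SD, n = 3). The ratio of EIF5A2 to EIF5A went from -5.84 ± 0.02 to -6.18 ± 0.15 (SD, n = 3). EIF4A2 and EIF4A3 relative to the EIF4A1 row differed by -0.19 and -0.39, and these 5 ratios did not overlap between groups. Each had a two-sided exact permutation p of 0.1 and 0.22 after adjustment over the 11 pairs, where 0.1 is the smallest p that 3 against 3 libraries can give. The other 6 ratios, EIF4G2 and EIF4G3 to EIF4G1, EEF1A2 to EEF1A1, GSPT2 to GSPT1, PABPC4 to PABPC1 and EIF3CL to EIF3C, overlapped.

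mRNAs with a terminal oligopyrimidine tract, which mTORC1 controls at translation, include 10 of the members, among them EEF1A1, EEF2, EIF4B and PABPC1. Of these 2 rose (EEF2 and EIF4B) and none fell, a share of 20% that is near the 20.6% of all tested genes, with a median log2 fold change of 0.05, beside 11 higher and 8 lower of the 55 other tested members with a median of -0.01. The ribosomal protein genes, the main holders of this tract, had none of 79 called by edgeR (3 at an unadjusted p under 0.05, and 1 called by DESeq2) and a median of -0.03. The smallest p were those of RPL23, RPL26 and RPL39, with log2 fold changes of -0.16, -0.15 and 0.13 and edgeR adjusted p of 0.0938, 0.105 and 0.146.

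The factors that choose the start codon together with EIF1, a list of 10 genes that holds EIF1 itself and no member, had 1 higher and 3 lower. These are 10% and 30%, against 10.2% and 10.4% of all tested genes, and EIF1, the siRNA target, is among the lower. Beside EIF1, with a log2 fold change of -3.58 (SE 0.055, edgeR adjusted p = 1.08e-13), EIF5 fell. EIF5, which triggers GTP hydrolysis by EIF2 at the start codon, had FPKM of 20.8, 18.7 and 19.6 in NC and 13.1, 12.4 and 13.2 in siEIF1 (log2 fold change -0.59, SE 0.049, edgeR adjusted p = 3.35e-06). BZW2, a protein that mimics EIF5, rose by 0.24 on the log2 scale (SE 0.051, edgeR adjusted p = 0.00492). Of 32 genes that regulate translation factors, 2 were higher and 7 lower, with a median of -0.09. These are 6.25% and 21.9%, beside the same shares of all tested genes. MKNK2, a kinase that phosphorylates EIF4E, changed by 0.34 (SE 0.051, edgeR adjusted p = 4.63e-04). PPP1R15B, a subunit of the phosphatase that restores EIF2, changed by -0.36 (SE 0.061, edgeR adjusted p = 9.84e-04), and CTIF, a partner of the nuclear cap-binding complex, by 0.36 (SE 0.072, edgeR adjusted p = 0.00318).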

How the data were processed

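The deposited files hold raw read counts per gene and FPKM for 6 ARPE-19 libraries. The authors made them from directional, poly(A)-captured RNA by trimming with FASTX-Toolkit, aligning to GRCh38 with HISAT2 and counting uniquely mapped reads. All samples were prepared in parallel and sequenced in a single run. The counting program, its strand setting and the annotation release are not given in the sources used here. FPKM, deposited by the authors, scale the same counts by gene length and depth. Groups came from the sample labels, and 0 sample columns were unmatched.

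Counts were fitted with edgeR 4.0.16 (R 4.3.3; quasi-likelihood test, TMM scaling, filterByExpr) over all 16749 genes that passed, with Benjamini-Hochberg adjustment. Of 30618 genes, those under the filter were not tested. Precision did not follow the counts among well-counted members. The SE of the log2 fold change was 0.0529 for EEF1A1, with a mean of 486000 counts, and 0.0451 for EIF2AK1, with 2802. It was 0.64 for EEF1A2, with 9.33. With 3 libraries a group, the edgeR p-values weigh the group difference against the spread between these cultures, which edgeR moderates over all tested genes. FPKM served for library values, and log2 ratios of FPKM + 0.1 were tested by exact permutation. Counts were simulated for this comparison over 16749 genes, with 50 genes drawn at random for each fold change and the rest unchanged. There edgeR recovered 17 of 50 genes with a fold change of 1.25, 22 of 50 with 0.8, and 47 of 50 each with 2 and 0.5, with 5 false calls. In the data 20.6% of the tested genes were called, and the drawn genes were not matched to the members in depth. The recovery is thus no measure of power for the members. Windows of 150 bases were compared over all GENCODE 44 transcripts.

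Alternatives were DESeq2 1.42.0, limma 3.58.1 on log2(FPKM + 1) and log2(FPKM + 0.1), other scalings, filters and thresholds, each library left out, and the replicate number as a block. The labels do not say that the numbers pair the samples. Deviations of same-numbered libraries from their group means correlated at 0.152, 0.129 and 0.167 over genes, and those of differently numbered libraries at -0.21 to 0.048. Deviations from a group mean are not independent, so these values cannot show that the samples are paired. The blocked values are given where they change a call.

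The members and gene lists were chosen with earlier results of these data known. Named were each called member, the highest and lowest member of each complex, and 3 genes with the smallest p in each other list. Complexes follow the genes' roles, and EEF1AKMT4-ECE2 was placed with EEF after the files were seen.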

Additional observations from a re-analysis of the deposited data

How the results depend on the processing

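All 21 called members kept their sign under every alternative, and with the replicate number as a block all 21 stayed called, as 14 higher and 9 lower with EIF3F (adjusted p = 0.0274) and GSPT1 (adjusted p = 0.0238) added. The block changed no other call among the members. The count of members higher in siEIF1, 13, was 5 with limma on log2(FPKM + 1), 5 on log2(FPKM + 0.1), 6 at an adjusted p under 0.01, and 6 to 12 with a library left out. The count of lower members, 8, was 5 with limma on log2(FPKM + 1), 4 at an adjusted p under 0.01, and 4 to 7 with a library left out. NC replicates 1 and 3 and siEIF1 replicate 2 gave the lowest counts when left out. The shares of all tested genes called under these settings are not given here. A loss of calls over all genes thus cannot be told apart from one particular to the members. The median log2 fold change of EIF4 (0.08) was 0.061 with limma on log2(FPKM + 1), 0.063 on log2(FPKM + 0.1), and 0.052 to 0.092 with a library left out, and that of termination and poly(A) binding (0.03) was -0.027 to 0.079, negative without NC replicate 3 or siEIF1 replicate 3. The causes were not tested. Without a filter on low counts 18 of the 21 were called, losing EIF3B, EIF4E and PABPC4, and 9 stayed called with any library left out. On log2(FPKM + 1), limma called 10 of them, which were EIF4A1, EIF3J, EIF4E, EIF3G, EIF2S1, EIF4B, EEF1AKMT4, EIF4EBP1, EIF3C and EIF4E2. Depth limits EIF4E3, EEF1AKMT1, EEF1AKMT4, EIF3CL, EIF4EBP3 and EEF1A2, with means of 233, 204, 137, 107.5, 28.8 and 9.33 counts. Unique mapping limits EIF3C and EIF3CL. EIF4A1 and EEF1G share most windows with transcripts of other genes, and how reads were assigned between such rows is not known.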
